A study of Mus musculus with 11 samples.

Results

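The mitochondrially encoded genes are the 37 genes of the circular mitochondrial DNA (mtDNA), which in the mouse reference is 16299 bases long. They were chosen by name, as all genes whose symbol starts with mt-, and they are 37 of the 55359 genes counted. They comprise 13 mRNA genes, 2 rRNA genes and 22 tRNA genes. The counts came from retinal vascular endothelial cells (CD31-positive and CD45-negative) sorted at P17 from C57BL/6 mice in the oxygen-induced retinopathy (OIR) model, in which pups are exposed to high oxygen and abnormal vessels then grow after their return to room air. At P12, 5 mice (1, 2, 5, 6 and 9) had received 0.5 µL of oncostatin M (OSM) at 100 ng/µL into the vitreous, and 6 mice (3, 4, 7, 8, 10 and 11) had received PBS. Both retinas of 1 mouse gave 1 library, and mice 1 to 4, 5 to 8 and 9 to 11 came from 3 litters, each used in 1 OIR run, so litter and run cannot be told apart. According to the methods, the fellow eye was given PBS, and how this applies to the pooled retinas of a sequenced mouse is not given in the sources used here.

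Mitochondrial DNA is copied and transcribed inside the organelle. Each strand is read as a long precursor, from which the tRNAs are excised, and this releases the mRNAs and rRNAs that lie between them. Most of the mRNAs carry short poly(A) tails. The mRNAs encode core subunits of respiratory complexes I, III, IV and V, while the other subunits, the whole of complex II and the transcription machinery are encoded in the nucleus. In endothelial cells, which draw much of their energy from glycolysis, the respiratory chain is best known for its part in proliferation and in redox signaling.

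The libraries held 26697990 to 56033479 counts (median 32500202), and mouse 9 held the highest total. All 12 endothelial markers examined had reads, with a summed level of 15357 to 20734 CPM (counts scaled to a common library total). Rod markers summed to 226 to 6091 CPM and erythroid markers to 119 to 1135 CPM. In a bulk library, fewer mitochondria or mtDNA copies per cell and less RNA per mtDNA copy cannot be told apart.

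The counts of several members are bounded by how reads are assigned. Reads that match more than 1 place, or that touch more than 1 annotated gene, are not counted by default, and mouse chromosome 1 carries a nuclear copy of part of the mtDNA. In GRCm39, this copy lies at chr1:24650616-24655269 on the minus strand and corresponds to chrM:6390-11042. Of 4654 aligned positions, 4651 were identical, 2 differed and 1 held a base that is absent from the mtDNA. The copy covers 11 mitochondrial genes whole and mt-Co1 and mt-Nd4 in part. Both differing bases can be written as A6393T in mt-Co1 and T9461C in mt-Nd3, with positions counted from 1 at the start of the mtDNA reference, the mtDNA base first and the base of the copy last. The start of mt-Nd3, a complex I subunit, is shown because 1 base makes the gene countable. The capital marks that base:
mt-Nd3 in the mtDNA, chrM:9459-9510, plus strand: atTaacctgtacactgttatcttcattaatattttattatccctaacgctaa
mt-Nd3 in the copy, chr1:24652149-24652200, minus strand: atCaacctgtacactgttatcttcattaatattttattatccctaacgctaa
The gene of the arginine tRNA, mt-Tr, is shown because it holds the only inserted base, which the capital marks:
mt-Tr in the mtDNA, chrM:9808-9875, plus strand: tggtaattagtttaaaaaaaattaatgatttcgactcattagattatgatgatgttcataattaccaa
mt-Tr in the copy, chr1:24651783-24651851, minus strand: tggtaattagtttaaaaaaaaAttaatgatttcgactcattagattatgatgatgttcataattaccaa

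Libraries were primed on poly(A) tails, and mitochondrial mRNAs end at or close to their stop codon. The last 30 annotated bases of 4 of the mRNA genes are therefore shown, with the stop codon in capitals. In the first 3, the annotated gene ends on a single T, and polyadenylation is known to complete the stop codon:
mt-Cytb, chrM:15259-15288, plus strand: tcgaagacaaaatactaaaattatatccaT
mt-Nd4, chrM:11515-11544, plus strand: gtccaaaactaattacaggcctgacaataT
mt-Co3, chrM:9361-9390, plus strand: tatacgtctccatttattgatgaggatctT
mt-Nd1, chrM:3678-3707, plus strand: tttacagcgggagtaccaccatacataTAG

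Every 50-base window of the mtDNA was scored as countable for a gene when it touched that gene and no other annotated gene and matched no other place in GRCm39. The length of 50 was taken from the 50-cycle sequencing run. By this measure, 12 of the 37 genes had no countable window. They were 5 mRNA genes (mt-Co2, mt-Co3, mt-Atp6, mt-Atp8 and mt-Nd4l) and 7 tRNA genes. Some of the tRNA genes, such as the tyrosine tRNA gene mt-Ty (chrM:5260-5326), lie outside the chromosome 1 copy. Shorter identical stretches on chromosome 2 cover those, such as 176 bases that match chrM:5205-5380. Of these 12, 11 had 0 reads in every mouse, and mt-Co2, a catalytic subunit of complex IV, had 9 reads in mouse 11 and 0 in the other mice. Only 1 gene with countable windows, the asparagine tRNA mt-Tn, was also at 0 in every mouse. The zeros of the cytochrome c oxidase subunits mt-Co2 and mt-Co3, of both ATP synthase subunits and of mt-Nd4l are thus counts in genes where no window could be counted, and are no measure of their RNA. Complex V was not measurable from its mitochondrial genes, and complex IV was measurable only through mt-Co1.

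The genes kept by a few windows were counted accordingly. mt-Nd3 retained 3 countable windows, which start at chrM:9459-9461 and all include the differing base, and it had 70 to 562 reads per mouse. mt-Cytb (chrM:14145-15288, cytochrome b of complex III) retained 1100 and had 82883 to 316611 reads. mt-Co1 (chrM:5328-6872, the catalytic core of complex IV) retained 731 windows, all of which start at or before base 6393, and mt-Nd4 (chrM:10167-11544) retained 503, all of which start at or after base 10994. Reads on the 7 pseudogenes annotated in the chromosome 1 copy summed to 6 to 51 per mouse. The same rule drops reads that match both the mtDNA and this copy, so these counts do not measure RNA from the copy. Over all annotated nuclear copies of the mtDNA, the reads summed to 31 to 192 per mouse.

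**Figure D1:**
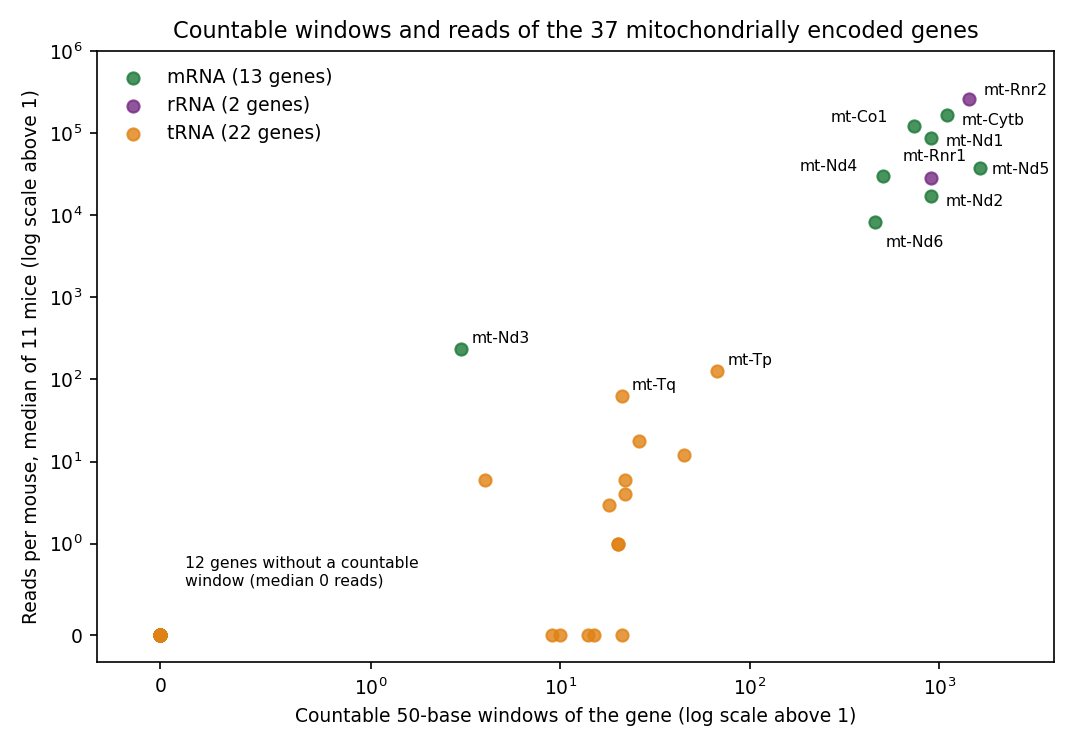
Each point is 1 of the 37 genes, with its number of countable 50-base windows on the x axis and its median reads per mouse over the 11 mice on the y axis, both on a scale that is logarithmic above 1. The 12 genes without a countable window sit at 0 on both axes, mt-Nd3 lies apart with 3 windows, and the other 9 tested mRNA and rRNA genes hold 456 to 1626 windows each.

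The tRNA genes held few reads. Of the 22, 14 had a read in any mouse, 8 had none, and the highest count of any tRNA gene in a mouse was 285. That count belonged to the proline tRNA mt-Tp, which ranged from 46 to 285 reads, followed by the glutamine tRNA mt-Tq with 43 to 143. Mature tRNAs carry no poly(A) tail. mt-Tp, mt-Tq and mt-Nd6 lie on the minus strand, and the libraries do not mark strand, so reads from these genes and from RNA of the opposite strand cannot be told apart.

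Levels were compared between genes as CPM per countable window, over the 9 genes with at least 100 such windows. Over the 11 mice, the 16S rRNA mt-Rnr2 was highest at 5.06 ± 2.13 (SD, n = 11), followed by mt-Co1 at 4.41 ± 1.67 and mt-Cytb at 4.27 ± 1.45. Within mice, mt-Rnr2 exceeded mt-Co1 in 9 of 11, by 0.18 ± 0.23 on the log2 scale, and mt-Co1 exceeded mt-Cytb in 7 of 11, by 0.02 ± 0.17. These 3 neighbours thus did not differ beyond their spread between mice. mt-Cytb exceeded the next gene, mt-Nd1, in 11 of 11 mice, by 0.74 ± 0.14, and mt-Nd1 exceeded mt-Nd4 in 11 of 11, by 0.54 ± 0.13. Both of these genes encode membrane subunits of complex I.

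The lower levels ran from mt-Nd4 at 1.78 ± 0.67 CPM per countable window to the 12S rRNA mt-Rnr1 at 0.857 ± 0.445, a step that was present in 11 of 11 mice. mt-Rnr1 and mt-Nd5 did not differ beyond their spread, since mt-Rnr1 was higher in 6 of 11 mice and mt-Nd5 stood at 0.766 ± 0.298. mt-Nd6 (0.635 ± 0.253) and mt-Nd2 (0.547 ± 0.235) were the lowest of the 9. Of the genes left out of this order, mt-Nd3 stood at 2.30 ± 1.27 from its 3 windows, and the highest tRNA gene, mt-Tq, at 0.0977 ± 0.0271. The levels of mt-Rnr1 and mt-Rnr2, both cut from the start of the same precursor, differed by 2.65 ± 0.25 on the log2 scale, with mt-Rnr2 the higher in all 11 mice. The libraries were primed on poly(A) tails, so this is a ratio of counts. Whether the amounts of the rRNAs differ likewise was not tested. The same holds for the rRNAs beside the mRNAs in this order. Per kb of gene, with the uncountable bases included, mt-Co1 stood at 2086 ± 791 CPM, under mt-Cytb (4109 ± 1396) and mt-Nd1 (2477 ± 971), so its rank depends on the windows counted. The same holds for mt-Nd4, which per kb stood at 649 ± 245 CPM, under mt-Rnr1 (814 ± 423) and mt-Nd5 (682 ± 266).

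The share of all counts that fell on the 37 genes was 0.966% to 3.02% per mouse, with a median of 2.44%. In litter 1 the shares were 1.09% and 0.966% in the OSM mice 1 and 2, and 1.52% and 1.30% in the PBS mice 3 and 4. In litter 2 they were 2.93% and 2.73% in the OSM mice 5 and 6, and 3.00% and 1.81% in the PBS mice 7 and 8. In litter 3 the share was 2.44% in the OSM mouse 9, and 3.02% and 2.60% in the PBS mice 10 and 11. All mice of litter 1 lay below all mice of litters 2 and 3, whereas litters 2 and 3 overlapped, as did OSM and PBS.

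By litter, the mean share was 1.22% ± 0.24 (SD, n = 4), 2.62% ± 0.55 (n = 4) and 2.69% ± 0.30 (n = 3), so that litter 2 stood at 2.15 times and litter 3 at 2.21 times litter 1. By treatment, it was 2.03% ± 0.94 (n = 5) with OSM and 2.21% ± 0.76 (n = 6) with PBS. Within litters, the OSM mean differed from the PBS mean by -0.381 percentage points in litter 1, 0.425 in litter 2 and -0.368 in litter 3. The difference between treatments thus changed direction between litters. Each of these differences was smaller than those of litters 2 and 3 from litter 1 (1.402 and 1.471 points) and larger than that of litter 3 from litter 2 (0.0691).

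**Figure D2:**
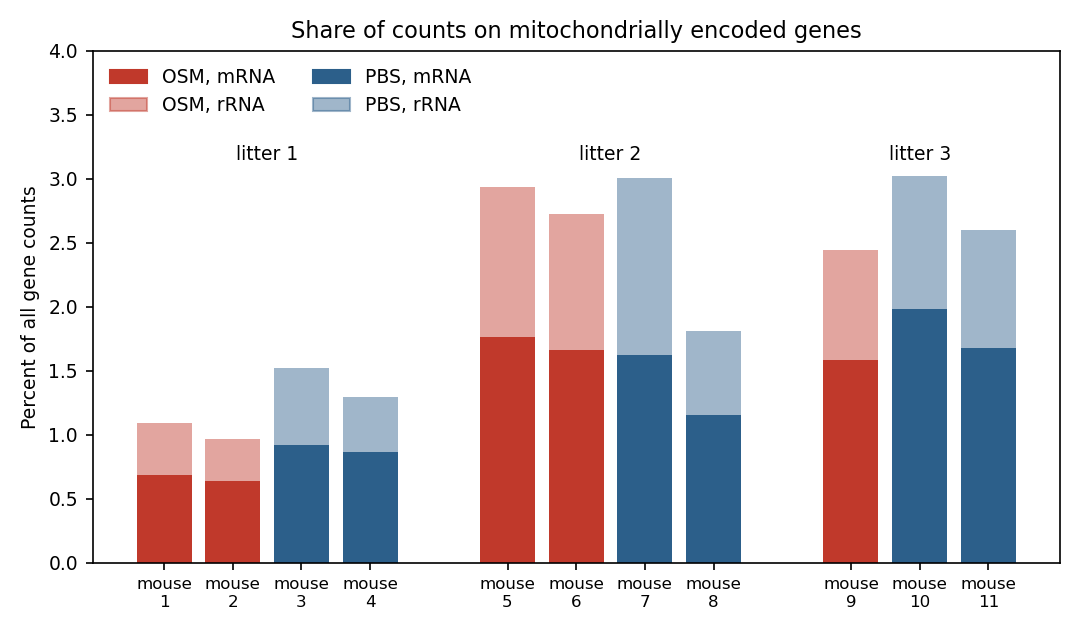
The bars give the percent of all gene counts on mitochondrial mRNA genes (dark) and rRNA genes (light) in each of the 11 mice, in 3 litters, with OSM in red and PBS in blue. The 4 mice of litter 1 reach 0.966% to 1.52%, and every other mouse reaches at least 1.81%.

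The mRNA genes took 1.32% ± 0.48 of all counts and the rRNA genes 0.805% ± 0.345 (SD, n = 11). Both classes differed between litters: the mRNA share was 0.635% to 0.921% in litter 1 and 1.15% to 1.76% in litter 2, and the rRNA share was 0.330% to 0.599% and 0.659% to 1.38%. Within the mitochondrial counts, rRNA made up 33.4% to 46.0%. The highest value was that of the PBS mouse 7, in which mt-Rnr2 alone made up 41.8%. The ranges of the treatments overlapped, at 34.2% to 39.8% with OSM and 33.4% to 46.0% with PBS.

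The balance among complexes within the mitochondrial mRNA counts varied little by comparison with the share. Complex I genes took 39.8% ± 1.8 of the mRNA counts, complex III, which is mt-Cytb alone, took 35.9% ± 1.6, and complex IV, which here is almost entirely mt-Co1, took 24.3% ± 2.0 (SD, n = 11). With OSM and PBS, respectively, complex I took 39.3% ± 1.5 and 40.2% ± 2.1, complex III 35.8% ± 1.0 and 36.0% ± 2.1, and complex IV 24.8% ± 0.9 and 23.8% ± 2.6. These differences lay within the spread between mice. For complex III, the shares were 36.8% to 37.8% in litter 1 and 32.4% to 36.8% in litter 2, and these ranges met at the PBS mouse 8 and the OSM mice 1 and 2, each at 36.8%. Per countable window, the counts were averaged over the genes of each complex and not summed. These means gave 14.0% ± 1.2 for complex I, 42.7% ± 2.5 for complex III and 43.3% ± 2.6 for complex IV. On this scale complex III is mt-Cytb alone and complex IV mt-Co1 alone. The order of the means is therefore not comparable with that of the sums. On that scale, the share of complex III did not overlap between litter 1 (42.7% to 47.8%) and litter 2 (38.2% to 42.2%). The lowest share of complex IV by counts, 19.6%, was that of the PBS mouse 3, and the highest, 27.3%, that of the PBS mouse 7.

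The question of the study was how OSM changes these cells. The comparison of OSM with PBS, with litter as a term in edgeR's quasi-likelihood test, covered the 16 members that passed the filter on low counts (8 mRNA, 2 rRNA and 6 tRNA genes) among 17050 genes. For mt-Co1, normalised counts (counts scaled to a common library size by TMM) were 56910, 57598, 142905, 145273 and 131814 in the OSM mice 1, 2, 5, 6 and 9, and in PBS mice the lowest, median and highest were 62248, 116942 and 153986. For mt-Cytb they were 86655, 81884, 205744, 199456 and 192782 in the same OSM mice, against 112895, 160142 and 228976 in PBS mice. For both genes the treatments overlapped, the OSM mice of litter 1 lay below every PBS mouse, and in each treatment the lowest mice were those of litter 1.

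None of the 16 members was called, nor was any of the 17050 genes (0%, adjusted p under 0.05 by edgeR). At an unadjusted p under 0.05 there were 0 of the 16 members and 846 of all genes (4.96%), and DESeq2 called 168 genes (0.763%) of which 0 were members. Of the 10 mRNA and rRNA genes, 9 had a log2 fold change below 0, from -0.24 for mt-Rnr1 to -0.03 for mt-Co1, with a median of -0.12 for the 10, beside -0.01 for all genes. Below 0 were 10 of the 16 members and 51.6% of all genes tested. The 95% interval of the log2 fold change was -0.27 to 0.21 for mt-Co1, -0.36 to 0.18 for mt-Cytb, and -0.55 to 0.22 for mt-Rnr2. Other abundant genes had wider intervals, such as -0.78 to 0.30 for mt-Rnr1 and -0.72 to 0.28 for mt-Nd2. Each adjusted p was 1 by edgeR. Without litter 1, the 9 genes below 0 were above it, at 0.012 to 0.17. Erythroid markers summed to 351 to 1135 CPM with OSM and 119 to 591 CPM with PBS, and all 5 tested had an unadjusted p under 0.05. Mural markers, with 10 found and none at 0, summed to 569 to 1111 CPM with OSM and 399 to 2179 CPM with PBS, and 0 of 10 had a log2 fold change above 0 (median -0.68). Among these, Pdgfrb had an unadjusted p under 0.05, and none of either list was called by edgeR. Their part in this comparison was not tested.

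mt-Nd3 was the exception in direction, and its counts came from 3 windows. Its normalised counts in the OSM mice 1, 2, 5, 6 and 9 were 116, 81.0, 430, 389 and 342, and in PBS mice the lowest, median and highest were 74.6, 209 and 317. The groups overlapped, although in litters 2 and 3 the OSM mice were above the PBS mice. The log2 fold change was 0.44 ± 0.42 (SE), with an adjusted p of 1 by edgeR.

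Within litters, the direction was shared by the genes and differed between the litters. In litter 1, the log2 difference of OSM from PBS was below 0 for 9 of the 10 mRNA and rRNA genes and lay between -0.74 for mt-Nd2 and 0.08 for mt-Nd3. In litter 2, it was above 0 for all 10, from 0.20 for mt-Rnr2 to 0.97 for mt-Nd3. In litter 3, with 1 OSM mouse, it lay between -0.42 for mt-Nd5 and mt-Rnr1 and 0.18 for mt-Nd3. The genes share their libraries and their precursors, so their common direction counts as 1 observation per litter.

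**Figure D3:**
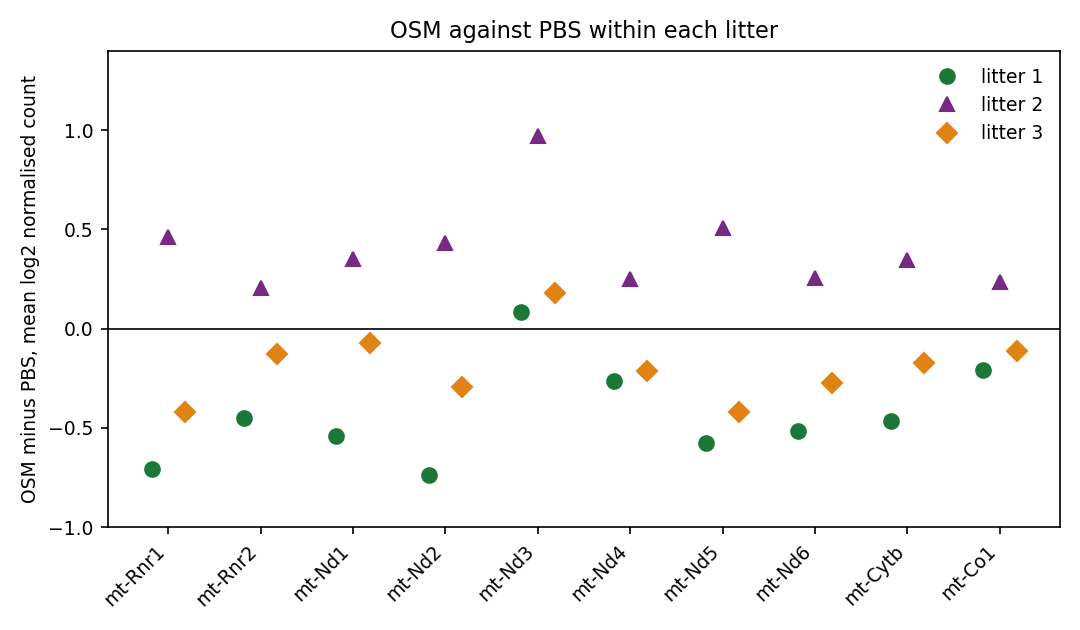
Points give the mean log2 normalised count of OSM mice minus that of PBS mice within each litter, for the 10 mRNA and rRNA genes tested. Litter 2 (triangles) lies above 0 for every gene, and litters 1 and 3 lie below 0 for every gene other than mt-Nd3.

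The treatment by litter interaction, fitted on 19902 genes, called none of its 18 members and none of all genes (0%, edgeR). At an unadjusted p under 0.05 there were 4 of the 18 members, beside 5.98% (1190) of all genes. These were mt-Nd5, mt-Cytb, mt-Nd1 and mt-Nd2, and their adjusted p by edgeR was 0.235, 0.240, 0.641 and 0.791. Without the filter on low counts, which kept every gene with a read, edgeR called 305 genes. Among these were 5 of the 25 members with a read. That fit covered more genes than the 19902, so its calls are not on the same base. For mt-Nd5, a membrane subunit of complex I, normalised counts were 22444 and 20907 in the OSM mice of litter 1 and 31663 and 32961 in its PBS mice. In litter 2 they were 55956 and 47591 with OSM and 39570 and 33450 with PBS. In litter 3 they were 48767 with OSM and 71014 and 60171 with PBS. The treatments of each litter did not overlap for mt-Nd5, and litter 2 ran opposite to litters 1 and 3, but the difference did not pass the test over all genes. mt-Nd5 is shown because its interaction p by edgeR was the lowest of the members. Its separation within litters follows in part from that choice and adds no support. Few mice stood on each side, and this pattern was not counted over all genes.

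Litters 2 and 3 lay above litter 1. With treatment as a term, litter 2 was above litter 1 for all 16 members, beside 50.2% of all genes, and litter 3 was above litter 1 for 15 of 16, beside 49.7%. The median log2 difference of the 16 was 1.09 for litter 2 and 1.12 for litter 3, while that of all genes was 0.00 and -0.00. Litter 3 against litter 2 gave log2 differences from -0.24 to 0.40 for the mRNA and rRNA genes, and edgeR called none of the members and none of all genes (0%). At an unadjusted p under 0.05 that contrast held 0 of 16 members and 1099 genes (6.45%).

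mt-Co1 was the member whose litters differed most clearly. Its normalised counts were 56910, 57598, 62248 and 70120 in mice 1 to 4, 142905, 145273, 147102 and 101623 in mice 5 to 8, and 131814, 153986 and 132261 in mice 9 to 11. No mouse of litter 1 reached the lowest mouse of the other litters, and mouse 8 stood apart from its litter. The test over the 3 litters called 3 genes in all (0.0176%), and mt-Co1 was 1 of them, with an adjusted p of 0.0216 by edgeR. Its log2 difference was 1.12 ± 0.13 (SE) for litter 2 and 1.17 ± 0.13 for litter 3. The other 2 genes, Depp1 and Klf6, ran the other way and are named because they complete the count. DESeq2's likelihood ratio test called 995 genes (7.11%), and of the 13 members that it gave an adjusted p, 11 were called. The call of mt-Co1 in edgeR was lost when any of mice 1, 2, 3, 4, 5, 9, 10 or 11 was left out (adjusted p = 0.054 to 0.208) and held without mouse 6, 7 or 8.

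In the contrast of litter 2 with litter 1, 14 genes rose in litter 2 (0.0821%), and 5 of these were members: mt-Co1, mt-Rnr2, mt-Nd4, mt-Cytb and mt-Nd1. Their log2 differences were 1.12, 1.23, 1.00, 0.87 and 1.08, with adjusted p-values by edgeR between 0.0267 and 0.0492. None of the 28 genes that fell (0.164%) was a member. For mt-Rnr2, normalised counts were 129380, 107357, 188690 and 137192 in litter 1 and 350026, 327143, 417463 and 207145 in litter 2, without overlap. For mt-Cytb they were 86655, 81884, 119513 and 112895 against 205744, 199456, 174665 and 145618, again without overlap. In both genes the lowest mouse of litter 2 was mouse 8. Without mouse 8, 8 members and 117 genes were called. Without mouse 1, 2, 3, 4, 5 or 7, 0 members were called, and without mouse 6, 9, 10 or 11, 1 was.

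In the contrast of litter 3 with litter 1, mt-Co1 was the only gene that rose (0.00587%), with an adjusted p of 0.0172 by edgeR. Of the genes that fell (0.0117%), 0 were members. The other mRNA and rRNA genes had log2 differences of 0.99 for mt-Rnr2 to 1.78 for mt-Nd3, and their adjusted p-values lay above the threshold. That of mt-Cytb was 0.0555 and that of mt-Nd1 0.0770. Without mouse 8, 7 members were called, although that mouse is in neither litter. Calls over all genes were also at their highest without mouse 8, and their range is given in the last section. The call of mt-Co1 was lost without mouse 1, 2, 3, 4, 9, 10 or 11.

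Counted by overlap, the 4 mice of litter 1 lay wholly below the 4 of litter 2 in 9 of the 16 members, beside 3.61% of all genes tested (7.26% in either direction), and wholly below the 3 of litter 3 in 11 of 16, beside 5.08% (10.8% in either direction). Litters 2 and 3 were separated in 0 of the 16 members, beside 5.48% of all genes, of which 2.84% had litter 3 the higher. OSM and PBS mice were separated in 0 of 16, beside 0.405%, of which 0.182% had OSM the higher.

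**Figure D4:**
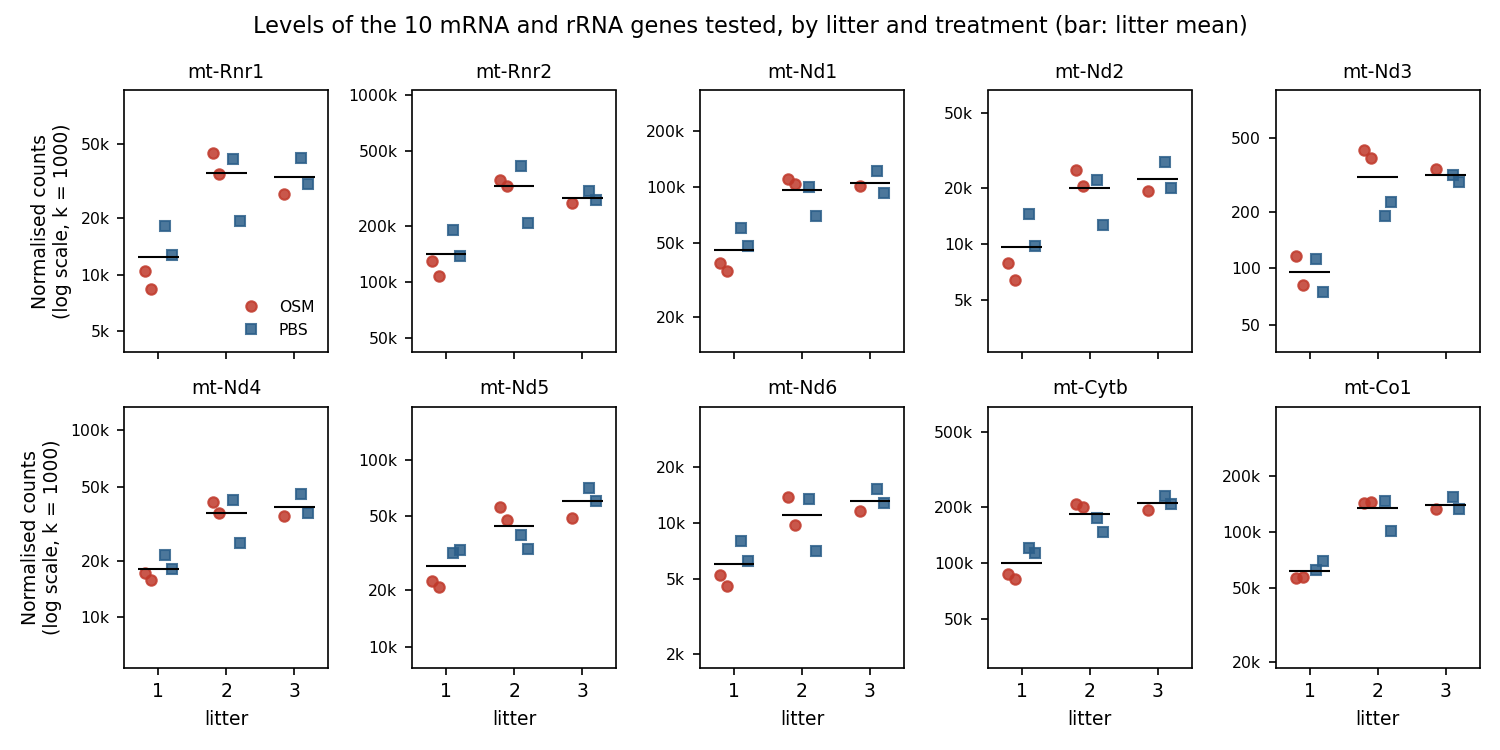
Normalised counts of the 10 tested mRNA and rRNA genes, 1 panel each on a logarithmic axis that spans the same ratio, are plotted by litter, with OSM mice as red circles, PBS mice as blue squares and the litter mean as a bar. The mean of litter 1 is the lowest in every panel, with some overlap in mt-Nd2 and mt-Nd6, and in mt-Co1 it ends at 70120 while litters 2 and 3 start at 101623.

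**Figure D5:**
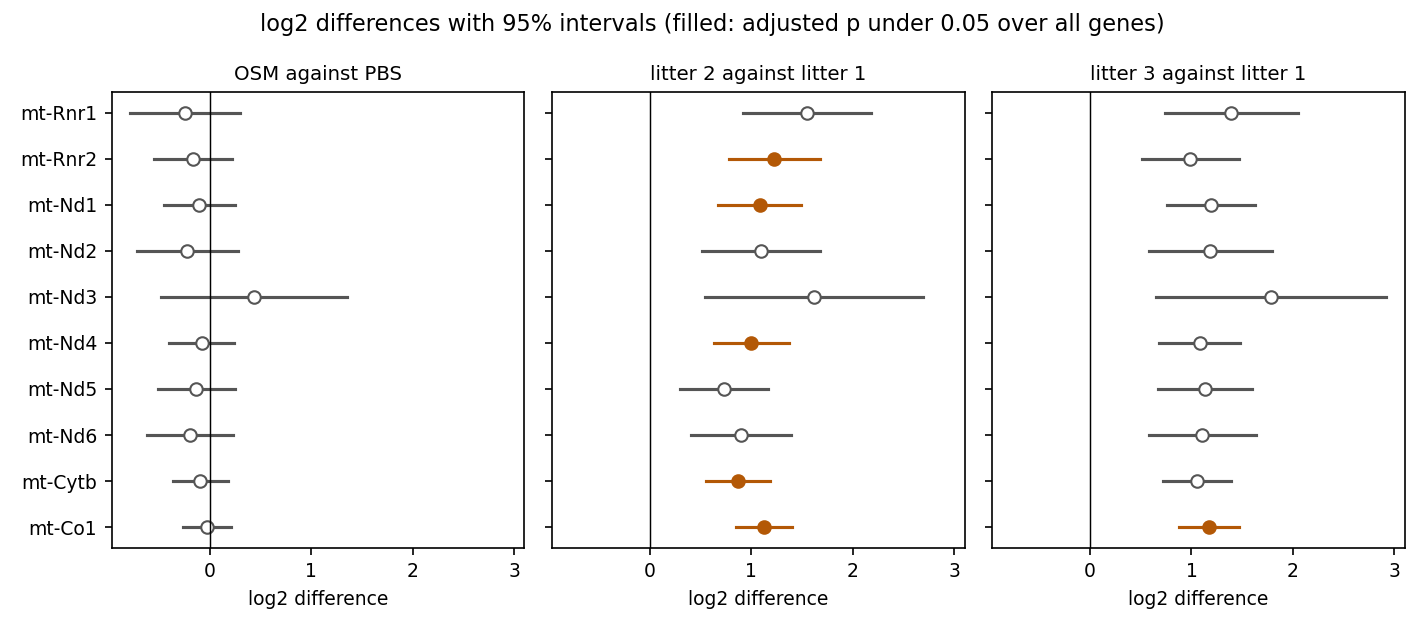
Points and lines give the fitted log2 difference and its 95% interval for the same 10 genes in 3 contrasts, and filled points passed the adjusted threshold. Every interval of OSM against PBS includes 0, 5 genes are filled for litter 2 against litter 1, and mt-Co1 alone is filled for litter 3 against litter 1.

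Other measurements moved with litter as well. The 18S rRNA gene Rn18s-rs5, which is named after its values were seen and whose RNA comes from the nucleus and has no poly(A) tail, had normalised counts of 78475 to 128141 in litter 1 and of 154963 to 250834 in litter 2. Its log2 difference was 1.06, with an adjusted p of 0.0504 by edgeR. Rod markers summed to 431 to 565 CPM in litter 1, 685 to 6091 in litter 2 and 226 to 1664 in litter 3, and all 12 of the list were measured with none at 0. In the contrast of litter 2 with litter 1, 0 of these 12 were called, while 0.0821% of all genes rose and 0.164% fell. Erythroid markers, with 7 found and none at 0, summed to 134 to 410, 557 to 1135 and 119 to 618 CPM, and 1 of 5 tested (Hbb-bt) rose in litter 2. Endothelial markers summed to 19110 to 20734, 15357 to 19096 and 17496 to 18647 CPM, and 2 of 12 (Pecam1 and Vwf) fell in litter 2. The part of these shifts in the mitochondrial difference was not tested.

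The nuclear partners of the mitochondrial genes had smaller differences between litters. Over the nuclear-encoded subunits of complexes I, III, IV and V, edgeR called 0 of 73 tested in OSM against PBS. It called 0 of all 17050 genes (0%) there as well. Of the 73, 9 had an unadjusted p under 0.05, beside 4.96% of all genes. The log2 fold changes had a median of 0.11, and 62 of the 73 were above 0, whereas 9 of the 10 mitochondrial mRNA and rRNA genes were below 0. Of all genes tested, 51.6% were below 0. Without litter 1, those 9 mitochondrial genes were above 0. Between litters 2 and 1, 71 of 73 were above 0, with a median log2 difference of 0.37 beside 1.09 for the mitochondrial members. None of the 73 was called in that contrast, in which 0.0821% of all genes rose and 0.164% fell. In the test over the 3 litters, 37 had an unadjusted p under 0.05, beside 10.3% of all genes. Per kb of gene, the log2 ratio of the median mitochondrial to the median nuclear subunit of complex I was 4.04 ± 0.46 (SD, n = 11), with 3.89 ± 0.50 under OSM and 4.16 ± 0.42 under PBS, and for complex III it was 5.71 ± 0.39, with 5.59 ± 0.44 and 5.80 ± 0.35. With sums per kb in place of medians, the log2 ratio was 1.38 ± 0.49 for complex I and 2.51 ± 0.43 for complex III. For complex I, the medians and the sums both include mt-Nd4l, at 0 without a countable window, and mt-Nd3 from its 3 windows. Over complex I members with at least 100 countable windows, the median per window gave a log2 ratio of 4.55 ± 0.46. By litter, the ratio of medians per kb of complex I was 3.72 ± 0.40, 4.01 ± 0.36 and 4.50 ± 0.28 in litters 1, 2 and 3. No ratio of medians per kb was taken for complexes IV and V, whose median mitochondrial gene is listed at 0. For complex IV, the log2 ratio of sums per kb was 0.58 ± 0.50, with mt-Co2 and mt-Co3 included although none of their windows was countable. Per countable window, from mt-Co1 alone, it was 7.33 ± 0.49.

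The nuclear genes that transcribe, copy and process the mtDNA were read from the same tests. They were taken from 4 lists (transcription, replication and maintenance, RNA processing and decay, and regulators of mitochondrial biogenesis). In OSM against PBS, edgeR called 0 of the 76 tested and 0 of all 17050 genes (0%). Lig3 and Perm1, 2 of the 76, had an unadjusted p under 0.05 by edgeR, beside 846 of all genes (4.96%). The median log2 fold change of the 76 was 0.01. The mitochondrial RNA polymerase Polrmt had 1268 ± 399 normalised counts with OSM (SD, n = 5) and 1364 ± 411 with PBS (n = 6), the packaging and transcription factor Tfam 1186 ± 278 and 1175 ± 89, and the transcription factor Tfb2m 208 ± 78 and 223 ± 49. In all 3, the treatments differed by less than the spread between mice.

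Among the replication genes, the helicase Twnk had 265 ± 178 normalised counts with OSM and 422 ± 237 with PBS, and the polymerase subunit Polg had 2394 ± 579 and 2112 ± 474. DNA ligase 3, Lig3, which seals mtDNA, had 1631 ± 447 and 1022 ± 675, with a log2 fold change of 1.04 ± 0.29 (SE), an unadjusted p of 0.00491 and an adjusted p of 0.955 by edgeR. Of the genes that stabilise or degrade the mRNAs, Lrpprc had 2060 ± 521 and 2060 ± 610, the RNA-degrading enzyme Pnpt1 1554 ± 376 and 1447 ± 324, and the poly(A) polymerase Mtpap 1802 ± 445 and 1744 ± 459. Slirp, the partner of Lrpprc, had 6.56 ± 5.70 and 10.2 ± 6.5, and the coactivator Ppargc1a 47.3 ± 92.0 and 2.22 ± 3.76, levels at which few reads decide a value. Perm1 was at 0 in all 6 PBS mice and in every mouse of litter 2. With OSM it stood at 73.2 ± 126.4, and its highest value, 297, was that of mouse 9, the only OSM mouse of litter 3. No fold is therefore given, and its adjusted p was 0.955 by edgeR.

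Between litters 2 and 1, none of the 76 was called, beside 14 of all 17050 genes that rose (0.0821%) and 28 that fell (0.164%). The median log2 difference of the 76 was 0.09. Among the named genes, the log2 difference was -0.12 for Polrmt, -0.07 for Tfam, -0.64 for Mtpap, 0.36 for Tfb2m, 0.22 for Lrpprc and 1.34 for Slirp, the last from few reads. Of the list of RNA processing and decay, 24 of 36 were above 0, with a median of 0.24. In that contrast, 5 of the 16 mitochondrial members rose. With so few calls over all genes, 0 of the 76 lies close to the share of all genes.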

How the data were processed

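RNA was sequenced in sorted retinal endothelial cells of 11 mice. The authors made cDNA by priming on poly(A) tails, amplified it, and sequenced single reads without a strand mark. The deposited values are raw counts of reads per gene; per the labels and the submitters' processing notes, the authors used GRCm39, STAR and featureCounts. No molecular identifiers were used, so errors are given as the spread over mice and not from read numbers. Totals were 26697990 to 56033479 per mouse. In the files of mice 10 and 11, the headers carry mouse numbers that are higher by 1, and the sample records were followed.

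The members and lists were chosen with earlier results of these data known. Gene positions came from GENCODE for GRCm39. Countable windows were found by exact matching of every 50-base stretch of the mtDNA, on both strands, to the whole genome. Counts were compared in edgeR 4.0.16 (R 4.3.3) with TMM, a filter at a minimum count of 10, robust quasi-likelihood tests and Benjamini-Hochberg adjustment over all genes tested (threshold 0.05). The model held litter and treatment. The litter contrasts and the interaction used the same settings. DESeq2 1.42.0 was the alternative tool, without a filter. Shares, balances and ratios are descriptions without a test. The fits were tested on simulated data. Named genes were all members, 10 genes of mtDNA expression and maintenance with the 2 of lowest unadjusted p on those lists, and nuclear copies of the mtDNA with high counts, of which there were none. Alternatives were other scalings, filters and tools, and leaving out mice or litters. Leaving out mice in the litter contrasts and the interaction, and the ratio per countable window, were added after seeing the data.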

Additional observations from a re-analysis of the deposited data

Results flagged for a closer look

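In 96 groups of 4 to 6 mice that were examined for a value far from the rest, 4 had one, and chance gives about 1 in 20. In litter 2, mt-Co1 had 101623 normalised counts in the PBS mouse 8, while the other 3 mice had 142905 to 147102. The other 3 values are of tRNA genes with few reads. mt-Ta had 15.7 normalised counts in the PBS mouse 7, beside 2.59 to 7.46 in the other PBS mice. mt-Tc had 38.1 in the OSM mouse 6, beside 8.11 to 13.7 in the other OSM mice. mt-Te had 12.8 in the OSM mouse 2, beside 1.07 to 2.94 in the rest of litter 1. The cause of these values was not tested.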

How the results depend on the processing

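Of 1428 recomputed values, 1209 kept their direction and their side of the threshold, or moved by less than the spread between mice. With every gene that had a read kept, edgeR called 65 genes for OSM against PBS, 625 between litters, 488, 274 and 98 for litters 2 against 1, 3 against 1 and 3 against 2, and 305 for the interaction. DESeq2 called 168 and 995 for treatment and litters, and without robust estimation 6 genes differed between litters 2 and 1. Members among these were 0 for treatment under each alternative. Without litter 1, the log2 fold change of OSM against PBS turned to 0.058 for mt-Rnr1, 0.018 for mt-Rnr2, 0.17 for mt-Nd1, 0.11 for mt-Nd2, 0.090 for mt-Ta, 0.081 for mt-Co1, 0.036 for mt-Nd4, 0.15 for mt-Nd5, 0.012 for mt-Nd6, -0.18 for mt-Te and 0.14 for mt-Cytb, and without litter 2 to -0.11 for mt-Tl1. Leaving out 1 mouse at a time gave -0.23 to 0.0056 for mt-Nd1, -0.35 to 0.11 for mt-Ta and -0.13 to 0.022 for mt-Co1. It gave 0 to 44 genes called between litters, 0 to 117 for litter 2 against 1, 0 to 19 for litter 3 against 1 and 0 to 11 for the interaction, with the highest of the first 3 without the PBS mouse 8 and that of the interaction without the OSM mouse 6. The only OSM mouse of litter 3 was kept for the interaction, which could not be fitted without it. With mRNA genes only, the share was 1.32%, and litters 2 and 3 exceeded litter 1 by 0.774 and 0.974 percentage points. Complexes I, III and IV took 43.6%, 37.6% and 18.8% of the summed counts per kb. Of the mean counts per countable window they took 14.0%, 42.7% and 43.3%. The mean over genes replaced the sum there, so the change of order cannot be assigned to the scale alone. The log2 ratio to nuclear subunits was 1.38 for complex I and 2.51 for complex III with sums per kb, and 4.55 for complex I per countable window. Where no construction of the alternative shows it, the cause was not tested. No paired analysis was possible because the labels number the mice across both groups and share no number between them. Litter was a term instead. Genes with few reads, such as the tRNA genes, were measured with wide intervals.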
